A study of Mus musculus with 16 samples.

Results

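The trigeminal ganglion, which holds the sensory neurons of the face, also contains macrophages, and 35 genes that macrophages and other myeloid cells express were followed through 16 ganglia of mice. The genes were taken by name from a list of macrophage identity genes, leukocyte genes, activating receptors, phagolysosome genes, border macrophage genes, microglia genes and a monocyte receptor. All 35 were found among the 25719 genes of each library and all 35 were among the 15109 genes that passed the low-count filter. The groups were ganglia of mice lacking Nogo-A (KO) and of wild-type mice (WT), taken 25 days after birth (P25) or on day 14 of embryonic life (E14), with 4 libraries in each group. The labels give neither the strain, the sex nor the design of the Nogo-A allele, and they describe a knockout of the animal, with no cell type named. Each library holds the RNA of 1 whole ganglion, so fewer macrophages and less RNA per macrophage cannot be told apart.

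Macrophages that settle in tissues before birth are kept alive by signalling through CSF1R, a receptor tyrosine kinase that binds colony stimulating factor 1 and interleukin 34. Their gene programme rests on the transcription factor PU.1, the product of Spi1, which binds purine-rich sites with a GGAA core. In peripheral ganglia macrophages lie around vessels and among the neurons and satellite glia, where they clear debris and dead cells. Microglia, the macrophages of the brain, and border macrophages of the meninges and vessels share most of these genes but differ in a few markers.

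Library totals were 22797780 to 29562379 counts at P25 and 15532373 to 21026134 counts at E14, and the 35 genes took 12876 to 18243 counts of a library at P25 and 4127 to 7322 at E14. The summed level of 10 sensory neuron genes was 14700 to 19700 CPM (counts scaled to the effective size of the library) at P25 and 15000 to 19800 CPM at E14, as the labelled tissue calls for. Rtn4, the gene that makes Nogo-A, averaged 368 ± 17.9 CPM in P25 KO and 489 ± 58.7 CPM in P25 WT, and 298 ± 74.7 CPM in E14 KO and 360 ± 164 CPM in E14 WT (SD, n = 4 each). Its log2 fold change was -0.41 (SE 0.27, edgeR quasi-likelihood adjusted p = 1) at P25 and -0.27 (SE 0.26, adjusted p = 0.943) at E14, so it was called at neither stage. Its KO libraries lay below its WT libraries at P25 (345 to 384 CPM in KO and 406 to 542 CPM in WT) and overlapped them at E14 (236 to 405 CPM in KO and 144 to 521 CPM in WT). The count sums Nogo-A with the shorter Nogo transcripts of the same gene and is therefore a weak check of the labels. One library stood apart: in E14 WT replicate 2, the GC content and length of transcripts explained 61.7% of the variance of its deviation from the stage mean, against 1.86% to 47% in the others.

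The promoter stretches of 4 members are shown, 3 with the purine-rich box that PU.1 is known to bind and 1 without it. They belong to the integrin gene Itgam and the lysosomal gene Laptm5, the 2 members whose E14 KO libraries all lay below the E14 WT libraries, to the mannose receptor gene Mrc1, which had the most boxes before its start site, and to the scavenger receptor gene Cd163, which had no count at E14. Each is the run of 250 bases before the RefSeq start site on the plus strand of GRCm38.p6, with the box GAGGAA, or its reverse complement TTCCTC, in capitals. The positions are chr7:128062390-128062639 for Itgam, chr4:130913066-130913315 for Laptm5, chr2:14229164-14229413 for Mrc1 and chr6:124304401-124304650 for Cd163.
Itgam: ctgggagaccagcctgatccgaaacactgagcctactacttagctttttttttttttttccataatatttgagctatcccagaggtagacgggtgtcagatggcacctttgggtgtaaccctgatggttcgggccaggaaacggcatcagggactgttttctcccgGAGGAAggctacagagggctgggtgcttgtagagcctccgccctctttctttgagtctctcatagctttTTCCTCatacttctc
Laptm5: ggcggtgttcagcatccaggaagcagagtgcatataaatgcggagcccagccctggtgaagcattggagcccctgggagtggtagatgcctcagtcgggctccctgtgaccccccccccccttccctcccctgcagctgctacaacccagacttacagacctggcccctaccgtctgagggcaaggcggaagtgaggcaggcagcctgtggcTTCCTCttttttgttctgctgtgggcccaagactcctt
Mrc1: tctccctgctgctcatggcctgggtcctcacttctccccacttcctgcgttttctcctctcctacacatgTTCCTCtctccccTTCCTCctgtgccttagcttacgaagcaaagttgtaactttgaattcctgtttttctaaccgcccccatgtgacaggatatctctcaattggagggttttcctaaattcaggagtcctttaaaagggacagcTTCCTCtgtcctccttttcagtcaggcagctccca
Cd163: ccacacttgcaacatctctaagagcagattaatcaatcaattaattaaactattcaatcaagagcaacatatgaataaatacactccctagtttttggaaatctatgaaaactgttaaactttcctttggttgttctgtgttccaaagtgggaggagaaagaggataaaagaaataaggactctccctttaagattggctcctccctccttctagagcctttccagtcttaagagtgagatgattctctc
In Itgam the boxes began at -84 and -15 from the start site, in Laptm5 at -38, and in Mrc1 at -180, -167 and -35. The window of Cd163 held none.

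The box was searched on both strands in RefSeq windows of 300 bases, from 250 before to 50 after each start site. Adgre1, Cd14, Csf1r, Gpr34, Il10ra, Lyve1, Spi1, Tmem119 and Tyrobp were not matched to a window. Of the 26 matched genes, 15 (57.7%) had the box in at least 1 window, beside 8446 of 27025 genes with a window (31.3%). The 15 were Ptprc, Fcgr3, Mrc1, Fcrls, Ctss, Cd53, Laptm5, Pf4, Itgam, Cd68, F13a1, Aif1, Trem2, Ms4a7 and Cybb. Lcp1 and Coro1a, the members with the highest counts, had no box in any of their windows, nor had Lyz2 or Mpeg1. Neither the base composition nor the number of windows per gene was matched between members and other genes. The matches describe letters in a window and not binding.

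Most macrophage genes were higher at P25. In KO ganglia 28 of the 35 genes were called higher and 2 lower at P25 (edgeR quasi-likelihood test, adjusted p under 0.05 over all genes tested), where 30.6% of all genes tested were called higher, 29.2% lower and 59.8% either way. In WT ganglia 26 were called higher and 2 lower, where the background was 29.7% higher, 29.8% lower and 59.6% either way. Of the 35 genes, 24 were called higher in both genotypes and 2, Coro1a and Tmem119, were called lower in both. Over all genes tested the share called in both genotypes can be at most 29.7% higher and 29.2% lower, the smaller of the shares above. The median log2 fold change over the 35 genes was 1.69 in KO and 1.34 in WT, beside 0.01 in KO and 0.0003 in WT over all genes tested, and both medians were the same with Cd163 set to its lower bound. All P25 libraries lay above all E14 libraries in 24 genes in KO (30.5% of all genes tested) and 27 in WT (26.1%), and all lay below in 1 gene in KO (29.3%) and 1 in WT (24.2%).

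**Figure D1:**
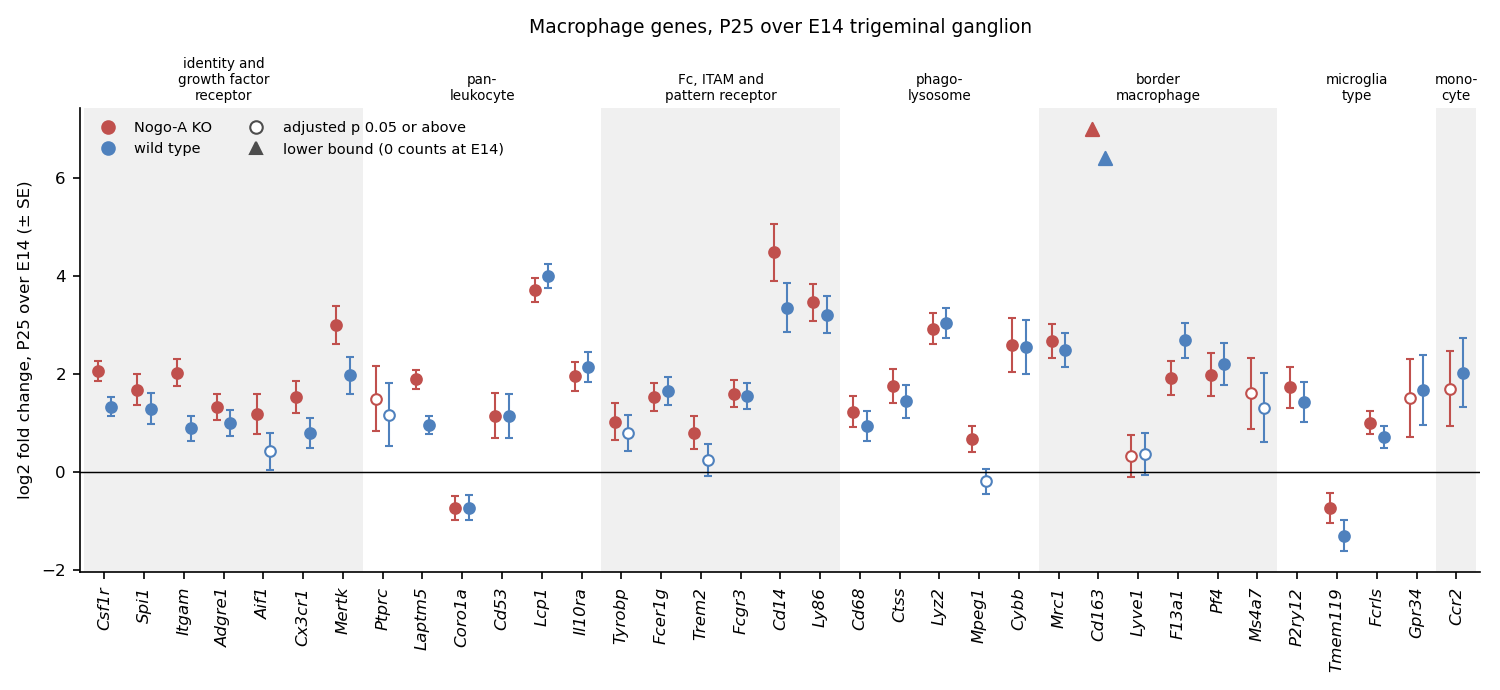
Log2 fold change of each macrophage gene, P25 over E14, in Nogo-A KO (red) and WT (blue) ganglia with its standard error, by role, with open circles where the adjusted p was 0.05 or above and triangles for the lower bounds of Cd163. Coro1a and Tmem119 lie below 0 with filled circles in both genotypes, and Lcp1 stands at 3.71 in KO and 4.01 in WT.

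Of the 7 identity genes, 7 rose in KO and 6 in WT. Csf1r measured 64.6, 72.7, 71.6 and 58.1 CPM in P25 KO and 64.3, 72, 65.3 and 70.9 CPM in P25 WT, against 11, 15.3, 20.4 and 17 CPM in E14 KO and 31.9, 27.5, 18.6 and 29.6 CPM in E14 WT. No P25 library overlapped an E14 library of its genotype. The log2 fold change was 2.07 (SE 0.20, adjusted p = 2.56e-08) in KO and 1.34 (SE 0.19, adjusted p = 5.94e-06) in WT. Spi1, Itgam, which encodes the CD11b chain of an integrin for complement-coated particles, Adgre1, which encodes the F4/80 antigen, and Cx3cr1, the fractalkine receptor, rose in both genotypes, by log2 changes of 1.33 to 2.03 in KO and 0.80 to 1.29 in WT. The call of Cx3cr1 in WT ended when E14 WT replicate 1 or 2, or P25 WT replicate 2 or 3, was left out (adjusted p 0.0596 to 0.0838), and with scaling by totals only (0.0947).

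Mertk, a receptor for the engulfment of apoptotic cells, had the largest rise of the identity group in both genotypes. It measured 9.96, 8.32, 7.99 and 27.1 CPM in P25 KO and 6.28, 8.85, 8.86 and 6.14 CPM in P25 WT, against 1.58, 1.77, 2.21 and 1.1 CPM in E14 KO and 2.06, 0.976, 2.22 and 2.32 CPM in E14 WT. P25 KO replicate 4 stood far above the other libraries, and the groups of each genotype did not overlap. The log2 fold change was 3.00 (SE 0.39, adjusted p = 1.71e-06) in KO and 1.98 (SE 0.38, adjusted p = 0.000153) in WT, and 2.42 in KO (adjusted p = 2.78e-06) with P25 KO replicate 4 left out. Aif1, which encodes the calcium-binding protein IBA1, changed least, with 0.87 to 1.52 CPM in P25 KO and 1.29 to 2.16 CPM in P25 WT, against 0.291 to 0.948 CPM in E14 KO and 0.853 to 1.74 CPM in E14 WT. Its ranges overlapped between the stages in both genotypes, and it was called in KO (log2 fold change 1.18, adjusted p = 0.018) and not in WT (0.42, adjusted p = 0.342).

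The pan-leukocyte genes went both ways. Lcp1, which encodes the actin-bundling protein L-plastin, had 193, 190, 172 and 198 CPM in P25 KO and 200, 231, 218 and 189 CPM in P25 WT, against 9.04, 16.8, 19.6 and 11.9 CPM in E14 KO and 12.8, 7.56, 16 and 15.6 CPM in E14 WT. The stages were far apart in both genotypes. This gave log2 fold changes of 3.71 (SE 0.25, adjusted p = 1.3e-10) in KO and 4.01 (SE 0.25, adjusted p = 5.29e-11) in WT, the largest of the members detected at both stages except for Cd14 in KO.

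Coro1a, which encodes the actin regulator coronin 1A and is also described in sensory neurons, went the other way. It measured 82.2, 109, 91.8 and 109 CPM in P25 KO and 78.4, 92.5, 77.8 and 166 CPM in P25 WT, against 163, 116, 157 and 218 CPM in E14 KO and 177, 233, 130 and 144 CPM in E14 WT. The KO groups did not overlap, while P25 WT replicate 4 lay within the E14 WT range. Coro1a fell by 0.74 on the log2 scale in KO (SE 0.25, adjusted p = 0.0147) and by 0.72 in WT (SE 0.25, adjusted p = 0.0165). The KO call ended when E14 KO replicate 4 was left out (adjusted p = 0.0751), and the WT call when replicate 1 or 2 of E14 WT, or 1, 2 or 3 of P25 WT, was left out (0.0522 to 0.0667).

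Laptm5, a lysosomal membrane protein gene of leukocytes, and Il10ra, the interleukin 10 receptor chain, rose in both genotypes, with log2 fold changes of 1.90 and 1.96 in KO and 0.97 and 2.15 in WT. Cd53, a tetraspanin gene, was called higher in both genotypes (1.15 in each). The KO call ended when replicate 1, 3 or 4 of E14 KO, or 2 or 4 of P25 KO, was left out (adjusted p 0.0504 to 0.115), and the WT call when replicate 2 or 3 of E14 WT, or 2 or 4 of P25 WT, was left out (0.0555 to 0.0792). With offsets for GC content and length its log2 fold change was 0.72 in KO (adjusted p = 0.141) and 0.69 in WT (0.158), and scaling by totals only also ended both calls (0.0514 in KO and 0.0592 in WT). Ptprc, which encodes the leukocyte antigen CD45, had 111 counts over the P25 KO libraries and 123 over the P25 WT libraries, against 32 in E14 KO and 44 in E14 WT, and was called in neither genotype (log2 fold change 1.50, adjusted p = 0.059 in KO, and 1.17, 0.124 in WT). Ptprc was called in KO in 7 of the 26 alternatives, among them DESeq2 (adjusted p = 0.0394) and the fit without E14 KO replicate 2, where its log2 fold change was 2.77 (0.00384).

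**Figure D2:**
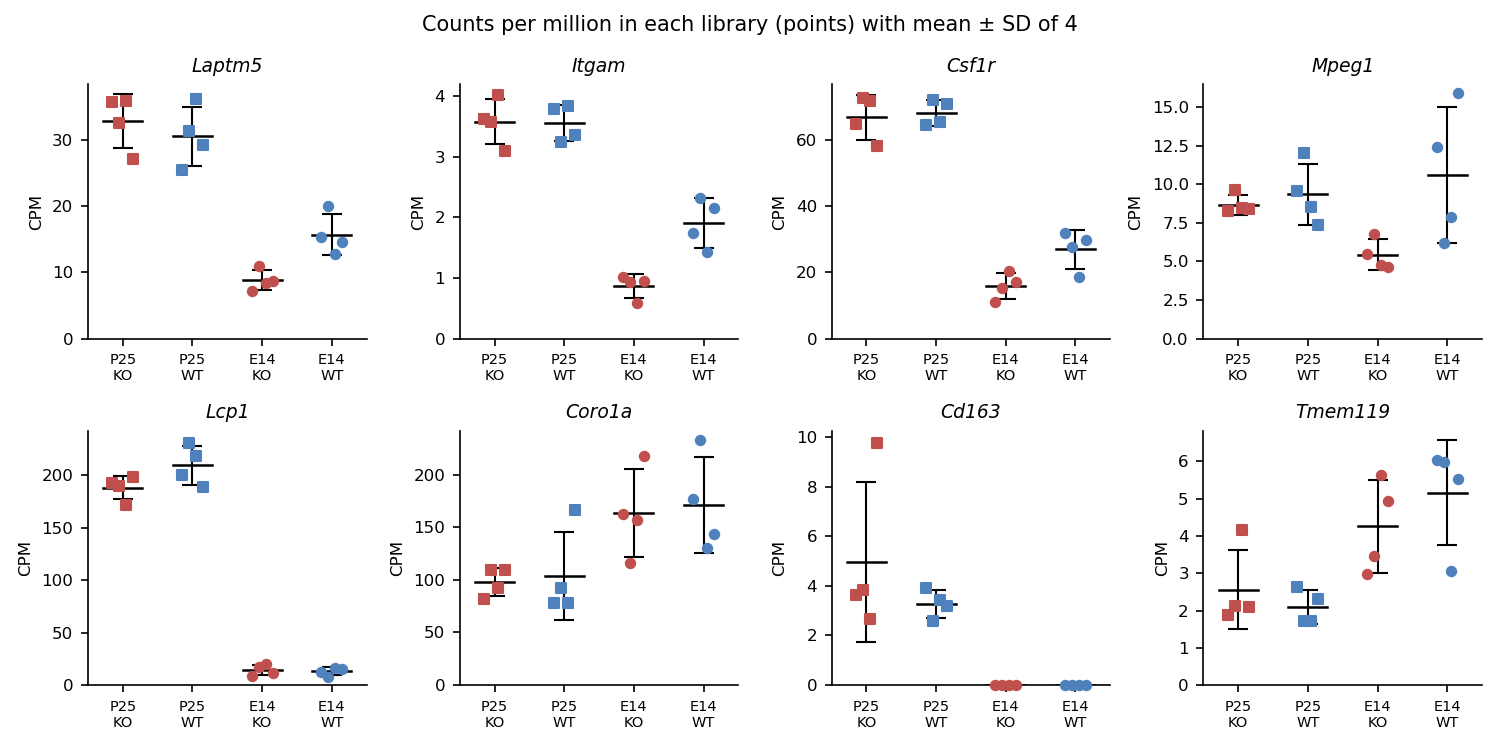
CPM of 8 macrophage genes in each library, with mean and SD of 4 libraries per group, P25 squares left of E14 circles and KO (red) left of WT (blue). In Laptm5 and Itgam the 4 E14 KO points lie below the 4 E14 WT points, Coro1a and Tmem119 are lower on average at P25, and Cd163 is 0 in all 8 E14 libraries.

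Coro1a and Lcp1 together made up 44.8% to 51.2% of the summed CPM of the 35 genes at P25 and 50.3% to 73.3% at E14. The sum over all 35 was 597 ± 24.9 CPM in P25 KO and 640 ± 52.2 CPM in P25 WT, against 266 ± 40.9 CPM in E14 KO and 314 ± 47.9 CPM in E14 WT (SD, n = 4 each). Without these 2 genes the sum was 311 ± 19 CPM in P25 KO and 326 ± 19.1 CPM in P25 WT, against 88.4 ± 7.22 CPM in E14 KO and 130 ± 26.1 CPM in E14 WT. Levels were also scaled by the median length of each gene's annotated transcripts (TPM). The highest at P25 in WT were then those of Lcp1 (336 ± 39.7), Coro1a (146 ± 55.4), Laptm5 (89.3 ± 14.1) and Csf1r (53.7 ± 3.86). At E14 in WT they were those of Coro1a (251 ± 36.7), Laptm5 (47.6 ± 3.95), Lcp1 (22.6 ± 8.61) and Csf1r (22.3 ± 5.13), and the last pair differed by less than its SD. This order depends on the median lengths, which were short for Laptm5 (379 bases) and Lcp1 (692) beside Csf1r (1405.5). In CPM at P25 in WT, Laptm5 (30.5 ± 4.46) lay below Csf1r (68.1 ± 3.88) and Lyz2 (40.6 ± 5.91).

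Receptors that signal through ITAM adaptors and pattern recognition receptors were called higher in 6 of 6 genes in KO and 4 of 6 in WT. Cd14, a co-receptor for bacterial lipopolysaccharide, had 2.88, 3.53, 3.15 and 2.58 CPM in P25 KO and 3.46, 2.99, 2.8 and 3.94 CPM in P25 WT, against 0, 0.187, 0.0583 and 0.238 CPM in E14 KO and 0.458, 0.061, 0.0569 and 0.613 CPM in E14 WT. It was nearly undetected at E14, with 10 counts over the 4 KO libraries and 26 over the 4 WT libraries. The log2 fold change was 4.49 (SE 0.58, adjusted p = 1.6e-06) in KO and 3.36 (SE 0.51, adjusted p = 1.12e-05) in WT. Ly86, which encodes the MD-1 protein that pairs with a Toll-like receptor homologue, rose by log2 changes of 3.47 in KO and 3.22 in WT. The adaptor gene Fcer1g rose by 1.54 in KO and 1.66 in WT, and the IgG receptor gene Fcgr3 by 1.60 in KO and 1.55 in WT, where reads shared with its close relative Fcgr2b may be split by the estimated counts.

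Trem2, a lipid-sensing receptor of phagocytes, and Tyrobp, the adaptor it signals through, changed less. Trem2 measured 3.42, 4.14, 3.74 and 4.44 CPM in P25 KO and 4.79, 2.61, 3.23 and 5.33 CPM in P25 WT, against 4.36, 1.4, 1.98 and 1.38 CPM in E14 KO and 3.81, 3.96, 2.56 and 3.11 CPM in E14 WT. The stages overlapped in both genotypes. Trem2 was called in KO (0.80, SE 0.34, adjusted p = 0.0482) and not in WT (0.25, SE 0.33, adjusted p = 0.538), as was Tyrobp (1.03, adjusted p = 0.0253 in KO, and 0.79, adjusted p = 0.0726 in WT). The Trem2 call in KO ended in 12 of the 26 alternatives, 10 of which left out 1 library. That of Tyrobp in KO ended when replicate 2, 3 or 4 of E14 KO, or 2 of P25 KO, was left out (adjusted p 0.0594 to 0.0846). Tyrobp became called in WT when replicate 4 of E14 WT, 1 of E14 KO or 3 of P25 WT was left out (0.0295 to 0.0423). It was also called in WT by DESeq2 (adjusted p = 0.046) and with same-numbered ganglia summed (0.0333).

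In the phagolysosome group 5 of 5 genes were called higher in KO and 4 of 5 in WT. Lyz2, which encodes lysozyme M, had 26.6, 34.8, 38.2 and 24.8 CPM in P25 KO and 35.5, 38.6, 39.1 and 49.1 CPM in P25 WT, against 7.01, 1.96, 4.66 and 2.86 CPM in E14 KO and 4.95, 4.27, 3.41 and 6.92 CPM in E14 WT. All P25 values lay above all E14 values, and the log2 fold change was 2.93 (SE 0.31, adjusted p = 1.23e-07) in KO and 3.05 (SE 0.31, adjusted p = 6.37e-08) in WT. Its close copy Lyz1 may share reads with it. Cybb, the catalytic chain of the phagocyte NADPH oxidase, rose by 2.60 in KO and 2.56 in WT, Ctss, a lysosomal protease gene, by 1.75 in KO and 1.44 in WT, and Cd68, a lysosomal glycoprotein gene, by 1.24 in KO and 0.94 in WT. The Cd68 call in WT ended without P25 WT replicate 1 (adjusted p = 0.067).

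Mpeg1, which encodes the pore-forming protein perforin-2, did not follow the others in WT. It measured 8.28, 9.65, 8.44 and 8.37 CPM in P25 KO and 9.54, 12, 8.5 and 7.34 CPM in P25 WT, against 5.5, 6.81, 4.78 and 4.62 CPM in E14 KO and 12.4, 6.22, 7.85 and 15.9 CPM in E14 WT. The WT stages overlapped, with the widest spread in E14 WT, while all P25 KO libraries lay above all E14 KO libraries. The log2 fold change was 0.68 (SE 0.26, adjusted p = 0.0309) in KO and -0.19 (SE 0.25, adjusted p = 0.548) in WT. The KO call ended when replicate 1, 3 or 4 of E14 KO, or 2 of P25 KO, was left out (adjusted p 0.0538 to 0.0733), and with scaling by totals only.

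Of the 6 border macrophage genes, 4 rose in each genotype and none fell. Cd163, a scavenger receptor for haemoglobin with haptoglobin, had 3.62, 3.84, 2.65 and 9.76 CPM in P25 KO and 3.91, 2.57, 3.41 and 3.17 CPM in P25 WT, and 0 counts in all 8 E14 libraries. With a floor of 3 counts over the 4 E14 libraries, it was at least 128-fold higher at P25 in KO (481 counts) and at least 85.8-fold higher in WT (335 counts). P25 KO replicate 4 had the highest value here too, and without it the bound in KO was 85.1-fold (235 counts).

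Mrc1, the mannose receptor CD206, rose by log2 changes of 2.67 (SE 0.34, adjusted p = 1.34e-06) in KO and 2.49 (SE 0.34, adjusted p = 3.02e-06) in WT. It averaged 13.5 ± 3.33 CPM in P25 KO and 11.3 ± 0.76 CPM in P25 WT, against 2.11 ± 0.506 CPM in E14 KO and 1.98 ± 1.04 CPM in E14 WT. F13a1, the transglutaminase chain of clotting factor XIII, rose by 1.92 in KO and 2.69 in WT, and Pf4, which encodes the chemokine CXCL4, by 1.99 in KO and 2.20 in WT. Both genes are also expressed by platelets and megakaryocytes.

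Lyve1, a hyaluronan receptor that lymphatic vessels also carry, and the tetraspan gene Ms4a7 were called in neither genotype. Lyve1 had 0.782, 1.51, 1.46 and 1.98 CPM in P25 KO and 1.05, 1.43, 1.11 and 1 CPM in P25 WT, against 0.948, 1.59, 1.4 and 0.619 CPM in E14 KO and 0.596, 0.305, 1.31 and 1.31 CPM in E14 WT. These ranges overlapped throughout, with log2 fold changes of 0.33 (SE 0.43) in KO and 0.37 (SE 0.44) in WT. For Ms4a7 the changes were 1.61 (SE 0.72, adjusted p = 0.0611) in KO and 1.32 (SE 0.70, adjusted p = 0.111) in WT. Ms4a7 was called in KO in 6 of the 26 alternatives, among them DESeq2 (adjusted p = 0.0432) and the fit without E14 KO replicate 3, where its log2 fold change was 2.74 (0.00658). In WT it was called without E14 WT replicate 1, at 1.99 (adjusted p = 0.0428), and with same-numbered ganglia summed (0.0402).

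The microglia genes split. Tmem119, a membrane protein gene used to tell microglia from other macrophages and also known from osteoblasts, had 1.89, 2.11, 4.15 and 2.1 CPM in P25 KO and 2.62, 1.73, 1.72 and 2.32 CPM in P25 WT, against 2.97, 3.45, 5.65 and 4.95 CPM in E14 KO and 6.05, 5.98, 3.07 and 5.52 CPM in E14 WT. All P25 WT libraries lay below all E14 WT libraries, while P25 KO replicate 3 lay within the E14 KO range. Tmem119 fell by 0.73 on the log2 scale in KO (SE 0.31, adjusted p = 0.0496) and by 1.30 in WT (SE 0.31, adjusted p = 0.00145). The KO call ended in 18 of the 26 alternatives (adjusted p 0.0544 to 0.174), while the WT call held in all of them.

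Fcrls, an Fc receptor-like gene of mouse microglia, rose by log2 changes of 1.01 in KO and 0.72 in WT, and P2ry12, the ADP receptor of microglial processes, by 1.74 in KO and 1.44 in WT. P2ry12 reached 2.61 ± 0.241 CPM in P25 KO and 2.86 ± 0.694 CPM in P25 WT. Gpr34, a lysophosphatidylserine receptor gene, had 0.823, 0.56, 1 and 0.397 CPM in P25 KO and 1.33, 0.632, 1.72 and 1 CPM in P25 WT, against 0.758, 0.0467, 0.233 and 0 CPM in E14 KO and 0.504, 0, 0.284 and 0.613 CPM in E14 WT. The stages overlapped in KO and not in WT, at 65 counts over the P25 KO libraries and 122 over the P25 WT libraries, against 17 in E14 KO and 30 in E14 WT. Gpr34 was called in WT (1.67, SE 0.71, adjusted p = 0.0493), where the call ended in 14 of the 26 alternatives (adjusted p 0.0534 to 0.127), and not in KO (1.51, SE 0.79, adjusted p = 0.104). In KO it was called in 3 of the 26 alternatives. Among them was the fit without E14 KO replicate 1, which had the highest E14 KO value, where the change was 2.93 (adjusted p = 0.00876).

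Ccr2, the chemokine receptor of blood monocytes, had few counts. It measured 0.782, 0.991, 0.411 and 0.675 CPM in P25 KO and 0.684, 1.43, 1.44 and 1.16 CPM in P25 WT, against 0, 0, 0.641 and 0.238 CPM in E14 KO and 0.321, 0, 0.341 and 0.438 CPM in E14 WT. The WT stages did not overlap and the KO stages did. Ccr2 was called in WT (2.03, SE 0.71, adjusted p = 0.0184) and not in KO (1.71, SE 0.76, adjusted p = 0.0601). In KO it was called by DESeq2 (adjusted p = 0.0417) and without E14 KO replicate 3, where the change was 3.03 (0.00668).

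The genes called in 1 genotype and not in the other were Aif1, Tyrobp, Trem2 and Mpeg1 in KO and Gpr34 and Ccr2 in WT. The difference between the stage changes of KO and WT was tested as an interaction, and 0 of the 35 genes passed (0% of all genes tested, edgeR). At an unadjusted p under 0.05 there were 4 of the 35 with edgeR (11.4%, beside 4.28% of all genes tested) and 4 with DESeq2. DESeq2 called 0 of the 35 and 8 of all genes. These 6 genes are therefore not shown to differ between the genotypes in how they changed with stage.

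Because Csf1r itself rose, each gene was also set against Csf1r within its library, a description chosen after seeing the data. Relative to Csf1r, 3 genes lay higher in all P25 libraries than in all E14 libraries of both genotypes, which were Lcp1, Cd14 and Cd163. Another 5 lay lower in both genotypes, which were Coro1a, Trem2, Mpeg1, Tmem119 and Fcrls. Per genotype, 3 of 34 ratios lay higher and 7 lower in KO, and 7 lay higher and 6 lower in WT. Among all other genes tested, 5.01% lay higher and 78.3% lower in KO, and 7.19% higher and 61.4% lower in WT. The share in both genotypes can thus be at most 5.01% higher and 61.4% lower.

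For 100 CPM of Csf1r, Tmem119 had 2.93, 2.9, 5.8 and 3.62 CPM in P25 KO and 4.07, 2.4, 2.64 and 3.27 CPM in P25 WT, against 27, 22.6, 27.7 and 29.1 CPM in E14 KO and 19, 21.7, 16.5 and 18.7 CPM in E14 WT. Its separation was wide in both genotypes, although its CPM overlapped in KO. Mpeg1 had 11.8 to 14.4 CPM for 100 CPM of Csf1r in P25 KO and 10.4 to 16.6 CPM in P25 WT, against 23.4 to 50 CPM in E14 KO and 22.6 to 53.8 CPM in E14 WT. Lyz2 moved the other way, with 41.1 to 53.3 CPM in P25 KO and 53.6 to 69.4 CPM in P25 WT, against 12.8 to 63.8 CPM in E14 KO and 15.5 to 23.4 CPM in E14 WT. In KO the Lyz2 ratios overlapped, since E14 KO replicate 1 had the highest of that group.

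**Figure D3:**
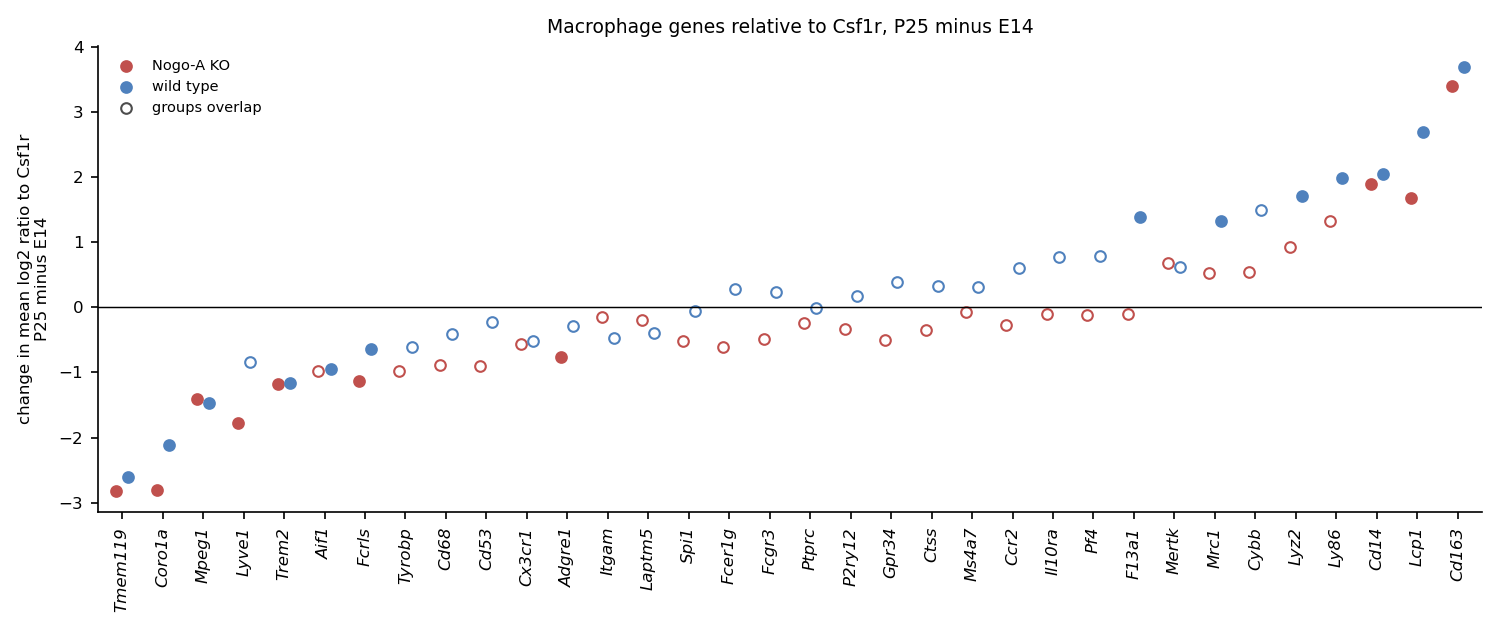
Change in the mean log2 ratio of each gene to Csf1r, P25 minus E14, in Nogo-A KO (red) and WT (blue) ganglia, with open circles where the 2 groups of libraries overlap; 0.1 CPM was added to each value. Tmem119 stands lowest, at -2.82 in KO and -2.60 in WT, and Cd163 highest, where the value depends on the added 0.1 CPM since its E14 counts were 0.

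Ligands of these receptors were followed as a separate list of 9 genes, of which 5 were called higher and 1 lower at P25 in KO and 6 higher and 1 lower in WT. Il34, which encodes interleukin 34, had 29.3, 31.6, 30.4 and 33.8 CPM in P25 KO and 22.5, 27.1, 27.8 and 37.3 CPM in P25 WT, against 0.0632, 0.56, 0.583 and 0.429 CPM in E14 KO and 0.55, 1.16, 0.171 and 0.745 CPM in E14 WT. The log2 fold change was 6.20 (SE 0.40, adjusted p = 7.41e-11) in KO and 5.45 (SE 0.38, adjusted p = 2.15e-10) in WT. Csf1, the other ligand of CSF1R, averaged 16 ± 0.821 CPM in P25 KO and 16.6 ± 1.85 CPM in P25 WT, against 15.3 ± 2.12 CPM in E14 KO and 18.4 ± 2.47 CPM in E14 WT, and was not called (log2 fold change 0.07, SE 0.17, in KO and -0.15, SE 0.17, in WT).

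Gas6, which bridges MERTK to phosphatidylserine on dying cells, rose by 2.42 in KO and 2.12 in WT, to 246 ± 14.7 CPM in P25 KO and 247 ± 29.2 CPM in P25 WT. Pros1, the other bridging ligand, was called in WT (0.63, adjusted p = 0.0384) and not in KO (0.53, adjusted p = 0.0766). Cx3cl1, the ligand of CX3CR1, rose by 1.07 in KO and 0.69 in WT, and Cd47, which encodes a signal against engulfment, by 1.03 in KO and 0.80 in WT. Cd200, which encodes another restraining ligand, fell by 0.72 in KO (adjusted p = 0.000797) and by 0.51 in WT (adjusted p = 0.0105). Ccl2, the ligand of CCR2, rose by 2.09 in KO and 2.54 in WT at a low level, with 60 counts over the P25 KO libraries and 120 over the P25 WT libraries, against 11 in E14 KO and 16 in E14 WT. The result for Tgfb1, which encodes the growth factor that maintains the microglia programme, did not pass the test in either genotype (adjusted p = 0.492 in KO and 0.358 in WT).

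**Figure D4:**
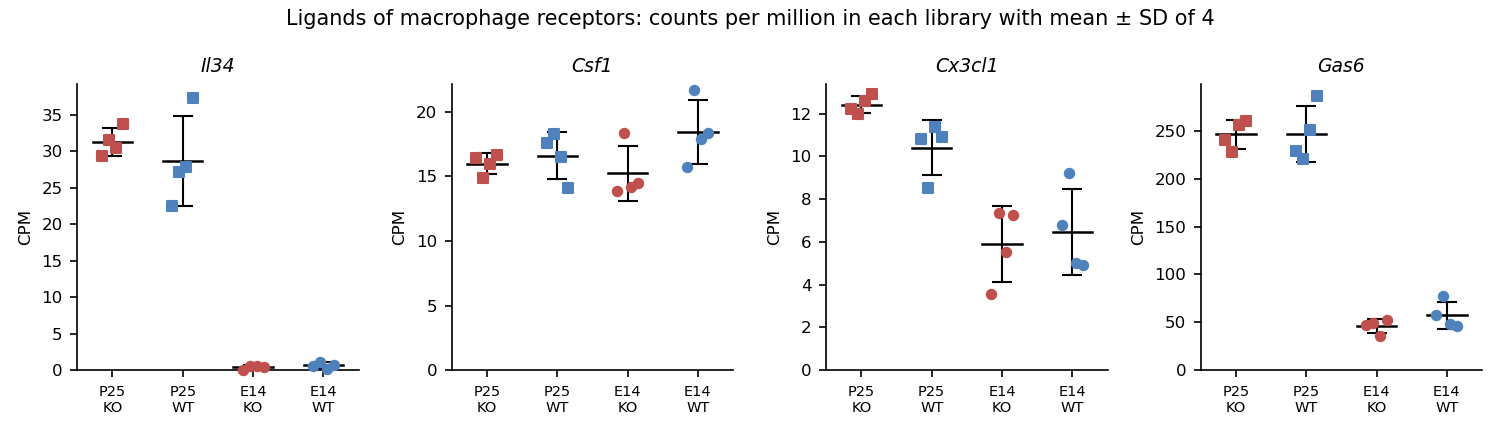
CPM of 4 ligand genes in each library with mean and SD of 4 libraries per group, P25 squares left of E14 circles and KO (red) left of WT (blue). Il34 lies between 22.5 and 37.3 CPM at P25 and at most at 1.16 CPM at E14, Csf1 overlaps between the stages, and Cx3cl1 and Gas6 are higher at P25.

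Other genes that macrophages express were counted from further lists, and which cells their counts came from was not tested. At P25 in WT the further microglia genes summed to 2150 to 2750 CPM and the lysosomal genes to 4790 to 6000 CPM. Most of the microglia sum was Sparc, at 1900 ± 169 CPM, followed by Cst3, at 346 ± 99.5 CPM. The 35 members summed to 588 to 705 CPM in the same libraries. All 7 MHC class II genes were called higher at P25 in both genotypes, with a median log2 fold change of 6.54 in KO and 6.01 in WT, and Cd74, the invariant chain, reached 59.1 ± 3.07 CPM in P25 KO and 67.7 ± 22.3 CPM in P25 WT, against 0.337 ± 0.177 CPM in E14 KO and 0.793 ± 0.467 CPM in E14 WT. Of 9 further border macrophage genes tested, 6 were called higher in KO and 5 in WT. They included the lectin gene Mgl2, which had 1295 counts over the P25 WT libraries and 0 at E14 in WT (at least 332-fold), and Cbr2, a carbonyl reductase gene, with 682 counts at P25 and 0 at E14 in WT (at least 175-fold). In KO the log2 fold change was 6.02 for Mgl2 and 5.67 for Cbr2. Of 9 further microglia genes tested, 5 were called higher in KO and 6 in WT, among them Crybb1, at 7.35 ± 0.674 CPM in P25 KO and 7.53 ± 2.78 CPM in P25 WT, against 0.402 ± 0.312 CPM in E14 KO and 0.99 ± 0.627 CPM in E14 WT.

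Myeloid transcription factors went both ways, with 5 of 10 tested called higher and 4 lower in KO and 4 higher and 3 lower in WT. Ikzf1, which encodes the lymphoid and myeloid factor Ikaros, rose by 1.00 in KO (adjusted p = 0.00631) and 1.53 in WT (adjusted p = 0.000204). Cebpb, which encodes a factor of myeloid maturation, rose by 2.39 in KO (adjusted p = 2.14e-06) and 1.21 in WT (adjusted p = 0.00161). Lysosomal genes were called higher in 9 of 10 in both genotypes, led by Gpnmb and Lgals3, and myeloid chemokines in 5 of 6 tested in KO and 6 of 6 in WT, with Ccl9 at 2.27 in KO and 1.50 in WT. Genes of phagocyte signalling were called higher in 5 of 12 in KO and 3 of 12 in WT, and oxidase subunits in 3 of 5 in KO and 1 of 5 in WT. Beside the 30.6% of all genes called higher in KO and 29.7% in WT, the WT counts of these last lists were not above the background.

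The makeup of the ganglion also differed between the stages. The summed CPM of 10 satellite glia and Schwann cell genes was 22500 to 44600 in P25 KO and 28600 to 33700 in P25 WT, against 1090 to 1340 in E14 KO and 1130 to 1490 in E14 WT. That of 6 erythroid genes was 87.8 to 129 in P25 KO and 53.1 to 122 in P25 WT, against 683 to 1210 in E14 KO and 564 to 1140 in E14 WT. For 6 endothelial genes it was 55.3 to 118 in P25 KO and 59.7 to 83.5 in P25 WT, against 176 to 223 in E14 KO and 172 to 202 in E14 WT, and for 6 fibroblast genes 1700 to 2090 in P25 KO and 1700 to 2080 in P25 WT, against 774 to 1170 in E14 KO and 993 to 1440 in E14 WT.

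Markers of other leukocytes were summed as well. The sum of 13 monocyte and neutrophil genes was 2.68 to 4.2 CPM in P25 KO and 2.2 to 7.37 CPM in P25 WT, against 0.714 to 1.31 CPM in E14 KO and 1.42 to 2.01 CPM in E14 WT, with 5 of the 13 genes at 0 in E14 KO and 6 in E14 WT. Mast cell genes summed to 4.18 to 10.9 CPM in P25 KO and 5.68 to 10 CPM in P25 WT, against at most 0.379 CPM at E14, with 6 of 7 genes at 0 in E14 KO and 3 of 7 in E14 WT. B cell genes summed to 4.74 to 5.93 CPM in P25 KO and 3.16 to 6.16 CPM in P25 WT, against at most 0.699 CPM in E14 KO and 0.917 CPM in E14 WT. T and NK cell genes summed to 4.87 to 7.21 CPM in P25 KO and 5.18 to 6.07 CPM in P25 WT, against 8.77 to 11.9 CPM in E14 KO and 5.63 to 10.9 CPM in E14 WT, mostly from Lck. Dendritic cell genes summed to 35.2 to 41 CPM in P25 KO and 39.9 to 43.3 CPM in P25 WT, against 31.4 to 37 CPM in E14 KO and 34.9 to 52 CPM in E14 WT. Of these, Flt3 rose by 5.22 in KO and 5.07 in WT, and Zbtb46 fell by 1.51 in KO and by 1.83 in WT. The part of these cells in the macrophage gene values was not tested.

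At E14 no macrophage gene was called between KO and WT. With edgeR 0 of the 35 passed (0.0199% of all genes tested were called), 8 of the 35 had an unadjusted p under 0.05 (22.9%, beside 4.86% of all genes), and DESeq2 called 0 with 9 at an unadjusted p under 0.05. The fitted log2 fold change was negative in 29 genes, positive in 5 and 0 in Cd163, while 43.3% of all genes tested were positive. The median over the 35 was -0.37, beside -0.04 over all genes tested. In 2 of the 35 genes every E14 KO library lay below every E14 WT library (1.11% of all genes tested), and in 0 every one lay above (0.523%).

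Laptm5 had the lowest p of the 35, with 7.2, 10.9, 8.45 and 8.67 CPM in E14 KO, against 15.3, 20, 12.7 and 14.6 CPM in E14 WT. Its groups did not overlap, and the log2 fold change was -0.83 (SE 0.19, unadjusted p = 0.000313, edgeR adjusted p = 0.427). Itgam had 1.01, 0.933, 0.583 and 0.952 CPM in E14 KO, against 1.74, 2.32, 1.42 and 2.15 CPM in E14 WT. This was the other gene without overlap, at 66 counts over the KO libraries and 150 over the WT libraries. The log2 fold change of Itgam was -1.12 (SE 0.28, adjusted p = 0.549).

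Csf1r and Mpeg1 came next, and in both the groups overlapped. In Csf1r, E14 WT replicate 3, at 18.6 CPM, lay below E14 KO replicate 3, at 20.4 CPM, and the log2 fold change was -0.76 (SE 0.19, adjusted p = 0.654). In Mpeg1, E14 WT replicate 2, at 6.22 CPM, lay below E14 KO replicate 2, at 6.81 CPM, and the log2 fold change was -0.97 (SE 0.26, adjusted p = 0.774). The other genes with an unadjusted p under 0.05 were Aif1 (-1.32, SE 0.41), Cx3cr1 (-1.01, SE 0.33), Adgre1 (-0.61, SE 0.27) and Fcrls (-0.53, SE 0.23), all with adjusted p = 0.942.

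By role, the negative values gathered in the identity genes, where all 7 were negative with a median of -0.76, and in the receptors, phagolysosome and microglia genes, where all 6, 5 and 4 were negative with medians of -0.39, -0.45 and -0.48. The border macrophage genes did not share this, with 3 positive and 2 negative and a median of 0.03, the most positive being F13a1 (0.66, SE 0.37, adjusted p = 0.942). In the pan-leukocyte group 4 were negative and 2 positive, and Coro1a (-0.06, SE 0.25) and Lcp1 (0.14, SE 0.23) lay close to 0. None of these values was called, and 14 of the 35 genes changed sign between KO and WT at E14 in at least 1 of the 26 alternatives. The counts by sign are therefore a description of the main fit. Whether the roles differ was not tested.

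**Figure D5:**
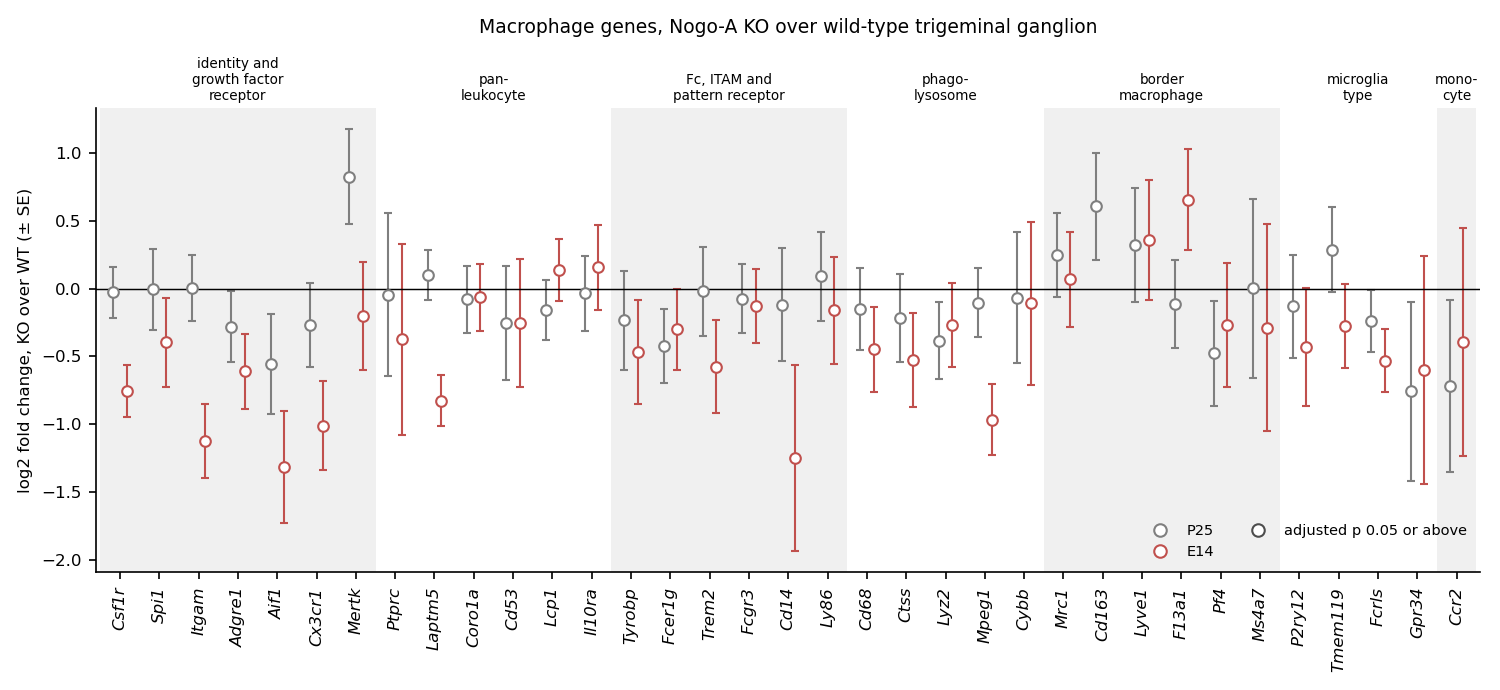
Log2 fold change of each macrophage gene, Nogo-A KO over WT, at P25 (grey) and E14 (red) with its standard error, by role; all circles are open since no adjusted p was under 0.05, and Cd163 is left out at E14, where it had no count. At E14 the values of Itgam, Aif1, Cx3cr1, Cd14 and Mpeg1 lie near or below -1, and at P25 most values lie close to 0.

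The libraries of E14 WT differed among themselves more than those of E14 KO. The median log2 deviation of the 35 genes from the E14 mean was -0.04, -0.34, -0.01 and -0.26 in E14 KO, against 0.50, -0.35, 0.03 and 0.66 in E14 WT. By this median WT replicates 1, 3 and 4 lay above all KO libraries, replicate 3 by a small margin. WT replicate 2 had the lowest median of the 8, close to that of KO replicate 2. Its summed CPM of the 35 genes was nevertheless the highest at E14, at 356 CPM, against at most 314 CPM in KO. Without Coro1a and Lcp1 its sum was 115 CPM, within the WT range of 101 to 157 CPM and above the KO range of 82.6 to 98.6 CPM. Leaving out WT replicate 4 brought the median change between the genotypes to -0.11, leaving out WT replicate 1 to -0.22 and leaving out KO replicate 2 or 4 to -0.23. Leaving out WT replicate 2 brought it to -0.49. The share of each library's variance that GC content and length explained was 3.31% to 39.4% in E14 KO and 6.09% to 61.7% in E14 WT, and with offsets for both the median was -0.37. The sum of the 13 monocyte and neutrophil genes did not overlap between the genotypes at E14, at 0.714 to 1.31 CPM in KO and 1.42 to 2.01 CPM in WT. Most of this sum was Csf3r, at 0.702 ± 0.188 CPM in KO and 1.28 ± 0.312 CPM in WT. Csf3r was not called (log2 fold change -0.84, edgeR adjusted p = 0.942). The part of these genes in the macrophage gene values was not tested. The sums of the other cell types overlapped, with sensory neuron genes at 16200 to 18700 CPM in KO and 15000 to 19800 CPM in WT and endothelial genes at 176 to 223 CPM in KO and 172 to 202 CPM in WT.

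Further macrophage lists gave no call at E14 either. The further microglia genes had 4 positive and 5 negative values in KO (median -0.11), the further border macrophage genes 5 positive and 4 negative (median 0.02), the myeloid transcription factors 4 positive and 6 negative (median -0.18), and the myeloid chemokines 2 positive and 4 negative (median -0.41). Of 12 phagocyte signalling genes, 10 were negative in KO with a median of -0.34, and of 5 oxidase genes 4 were negative with a median of -0.37. All 7 MHC class II genes were negative with a median of -0.25, at sums of 10 to 14.3 CPM in KO and 12.2 to 20.9 CPM in WT. The 10 lysosomal genes had 5 positive values and a median of -0.01.

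At P25 the genotypes lay close together. With edgeR 0 of the 35 genes were called (0.0463% of all genes tested), 1 of the 35 had an unadjusted p under 0.05 (1.87% of all genes tested), and DESeq2 gave the same numbers for the 35. The fitted values were negative in 26 genes with a median of -0.10, beside -0.02 over all genes tested, of which 46.4% were positive. No gene had all KO libraries above (2.05% of all genes tested) or below (1.28%) all WT libraries. Csf1r had a log2 fold change of -0.03 (SE 0.19), Itgam 0.01 (SE 0.24) and Laptm5 0.10 (SE 0.18), all with adjusted p = 1.

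The gene with an unadjusted p under 0.05 at P25 was Mertk, at 13.3 ± 9.21 CPM in KO and 7.53 ± 1.53 CPM in WT (log2 fold change 0.83, SE 0.35, adjusted p = 1). Its mean in KO rested on replicate 4 at 27.1 CPM, while the other KO libraries had 7.99 to 9.96 CPM, and the log2 fold change was 0.22 with replicate 4 left out. The 4 genes with the lowest p at E14 were also those with an unadjusted p under 0.05 in the interaction of stage and genotype, where they stood at 1.13 (SE 0.37) for Itgam, 0.93 (SE 0.26) for Laptm5, 0.86 (SE 0.36) for Mpeg1 and 0.73 (SE 0.27) for Csf1r, each with adjusted p = 0.993. The E14 libraries enter both comparisons, so these values are not independent of those at E14.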

How the data were processed

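Stranded libraries of polyadenylated RNA, 1 whole trigeminal ganglion each, were sequenced, per the labels' protocols. The authors deposited estimated counts per gene, given as integers, which split reads among similar transcripts by a model. GRCm39, kallisto 0.46, fastp 0.20.0 and DESeq2 1.32.0 appear, without role or order, in the submitters' processing notes. Symbols were matched for 25614 of 25719 identifiers. Transcript length and GC content came from a GRCm38 annotation and promoter sequences from RefSeq (GRCm38.p6).

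The counts were fitted with edgeR 4.0.16 (R 4.3.3), using TMM factors, filterByExpr, a single model of the 4 group means over all 16 libraries, the quasi-likelihood F test and Benjamini-Hochberg adjustment over all 15109 genes, called under 0.05. SE values derive from the F statistic. CPM are relative to the TMM-scaled total, and TPM were computed from the counts and the median transcript length of each gene. The fit was tested on simulated data. The 35 genes, the other lists and the rule for naming genes were chosen with earlier results of these data known. Genes with the value in every library were the 4 with the lowest p at E14 and the largest and smallest stage change in WT of each role; others are given where a result turned on them. Of the other lists, at most 2 called genes with the largest change at a mean of at least 1 CPM were named, and more of the ligands; a few genes that this rule took are not reported here.

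The labels state 4 animals per group, but in 2 E14 pairs the library names repeat a number, once with R and once with L. These ganglia may come from the same animal, so p-values measure the spread between ganglia. Same-numbered libraries of different groups are not paired by the labels. No 2 libraries agreed within sampling noise. Counting error alone underlies the floor of 3 counts. The alternatives were a replicate block, DESeq2 1.42.0, scaling by RLE or by totals only, a filter of 1 CPM in 4 libraries or none, same-numbered ganglia summed, the compared libraries only, offsets for GC content and length, and each library left out. Leaving out 2 libraries, ratios to Csf1r and sums without Coro1a and Lcp1 were added after seeing the data.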

Additional observations from a re-analysis of the deposited data

Results flagged for a closer look

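Of 135 sets of 4 libraries with at least 20 counts tested, 13 held a library that lay far from the other 3 by Dixon's criterion. The nominal rate of the criterion is about 1 in 20. The sets share libraries and are not independent, and the share over all genes is not given, so no excess is read from this count. The criterion was applied to log2 CPM with 0.1 CPM added, while plain CPM are given here. On that scale Mertk in P25 KO replicate 4 was not flagged. P25 KO replicate 4 had low values of Adgre1 (5.91 CPM, the others 8.52 to 9.18) and Fcer1g (3.65 CPM, the others 5.34 to 5.39). P25 KO replicate 2 had high values of Mpeg1 (9.65 CPM, the others 8.28 to 8.44) and P2ry12 (2.97 CPM, the others 2.47 to 2.51). P25 KO replicate 1 was low in F13a1 (5.6 CPM, the others 7.35 to 7.71), and P25 KO replicate 3 was high in Tmem119 (4.15 CPM, the others 1.89 to 2.11). P25 WT replicate 4 was high in Fcrls (26 CPM, the others 18.6 to 19.3).

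At E14, KO replicate 3 was low in Itgam (0.583 CPM, the others 0.933 to 1.01) and WT replicate 3 low in Tmem119 (3.07 CPM, the others 5.52 to 6.05). E14 WT replicate 2 was low in Mertk (0.976 CPM, the others 2.06 to 2.32) and Mrc1 (0.488 CPM, the others 2.16 to 2.85), and had 0 CPM of Cybb (the others 0.745 to 1.14) and 0 CPM of Ccr2 (the others 0.321 to 0.438). This is also the library whose deviations went furthest with GC content and length.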

How the results depend on the processing

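The count of members called stayed within 1.5 times of the reported one under all 26 alternatives, at 23 to 34 in KO and 24 to 30 in WT for the stage comparison and 0 for each genotype comparison and for the interaction, where 25 were run since a fit to the compared libraries holds all of them. With the replicate number as a block, 28 members in KO and 27 in WT were called by stage and 0 by genotype, and the median log2 fold change of the 35 genes was 1.73 by stage in KO, 1.33 by stage in WT, -0.08 by genotype at P25 and -0.43 by genotype at E14; the block ended the stage calls of Cd53 (adjusted p = 0.0505) and Tmem119 (0.0731) in KO and of Cx3cr1 in WT (0.0581). Same-numbered libraries of different groups did not deviate together (correlations -0.392 to 0.216). The E14 libraries of the same number and opposite sides had -0.354 in KO and -0.789 in WT. Both libraries of such a pair were set against the mean of their own group of 4, which by itself pulls the correlation below 0. These values therefore cannot tell whether the ganglia of a pair came from the same animal. Leaving out 1 library moved the median stage change in WT between 1.15 and 1.65 and the median E14 genotype change between -0.486 and -0.111, with the values nearest to 0 at E14 and highest by stage without E14 WT replicate 4. Leaving out E14 WT replicate 2 and P25 KO replicate 4 together gave 31 calls in KO and 24 in WT by stage and an E14 median of -0.485.

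Single calls changed in some alternatives, and no called gene turned direction. Uncalled values did change sign in at least 1 alternative, in 14 of the 35 genes between the genotypes at E14. The same held for 15 genes between the genotypes at P25 and for 18 in the interaction. In KO, Aif1, Cd53, Coro1a, Mpeg1, Tmem119, Trem2 and Tyrobp lost their call in at least 1 alternative, and Ccr2, Gpr34, Ms4a7 and Ptprc gained one. In WT, Cd53, Cd68, Coro1a, Cx3cr1 and Gpr34 lost theirs, and Ms4a7 and Tyrobp gained one. Without E14 KO replicate 4 or P25 KO replicate 1, Aif1 in KO had adjusted p 0.0532 or 0.0584. Depth limits the genes under about 1 CPM most, among them Ccr2, Gpr34, Ptprc, Ms4a7 and, at E14, Cd14 and Cd163.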
